A study of Mus musculus with 20 samples.

Results

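TFIIA and TFIIB, the general transcription factors that dock on TATA-binding protein (TBP), were compared as deposited lists of ChIP-seq peaks from mouse double-positive thymocytes. The members were all 6588 TFIIA peaks and all 10999 TFIIB peaks, 17587 of the 270514 peaks in the 16 lists of the series. Each list was split by a rule of position alone. A peak was called shared if it had at least 1 bp in common with a peak of the other factor, and alone otherwise. All samples came from thymus of C57BL/6 mice and were labelled T cells at the CD4+/CD8+ double-positive stage, when thymocytes carry both coreceptors. No genetic change, treatment or age was given for the animals. The series held 20 samples, of which 16 had a peak list. TFIIA was precipitated with antibody FL-109 and TFIIB with antibody C-18. The lists used beside them were TBP and Taf1, the other general factors TFIIE, TFIIF and TFIIH, RNA polymerase II (total Pol II) and its forms phosphorylated at serine 5 (Ser5P) and at serine 2 (Ser2P) of the tail, the histone marks H3K4me3, H3K4me1 and H3K36me3, the coactivator CBP, the T-cell factor ETS1, and FAIRE, an extraction of open chromatin that needs no antibody.

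Transcription by Pol II begins when TBP, usually as a subunit of TFIID, binds promoter DNA and bends it. TFIIA and TFIIB then bind opposite sides of the TBP and DNA complex. TFIIA stabilises TBP on DNA and displaces inhibitors of TBP, whereas TFIIB also touches DNA beside the TATA element, bridges TBP to Pol II and helps to set the start site. Taf1 is the largest subunit of TFIID. H3K4me3 marks active promoters, H3K4me1 is spread over enhancers and the flanks of promoters, and FAIRE recovers DNA with few nucleosomes. A shared site is therefore a position at which both partners of TBP were recovered in the same kind of cell, though in separate precipitations.

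The file names give merged replicates for TFIIA and 1 replicate for TFIIB. Each target thus had 1 list and no replicate spread, so no difference could be set against biological error and no p-value was computed. Intervals are 95% intervals (Wilson for a share, Newcombe for a difference of shares) and cover counting error only. Read numbers were not given in the sources used here, so the depth of the libraries was unknown. The area of a peak is the authors' value, the area under their signal track, and was used to rank peaks within a list. The lists hold positions and areas and no expression values, so the labelled cell type was not checked against marker genes. Positions are in mm9 and are given without a gene, since no annotation of that build was used.

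Most TFIIA and TFIIB peaks did not coincide. Of the TFIIA peaks, 814 (12.4%, 11.6 to 13.2) overlapped a TFIIB peak and 5774 were alone. Of the TFIIB peaks, 814 (7.40%, 6.93 to 7.91) overlapped a TFIIA peak and 10185 were alone. The counts were equal although not all matches were one-to-one: of 843 overlapping pairs 733 were, and 28 peaks of each factor had more than 1 partner. The TFIIB share depended on the rule and on list length, at 12.0% with peaks up to 500 bp apart counted as overlapping and 11.2% with the lists cut to equal length. The TFIIA share was 15.3% and 11.4% under those settings.

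Alone peaks were mostly far from the other factor. The median gap to the nearest TFIIB peak was 134 kb for alone TFIIA peaks, and 3.36% of them lay within 500 bp of one. The median gap to the nearest TFIIA peak was 69.9 kb for alone TFIIB peaks, with 4.99% within 500 bp. Alone TFIIA peaks in H3K4me3 chromatin were the exception. Of these 443 peaks, 34.1% lay within 500 bp of a TFIIB peak, and the median gap was 2.51 kb. Alone TFIIA peaks outside both H3K4 marks had a median gap of 174 kb, and 0.364% of them were within 500 bp.

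The lists occupied different chromatin. TBP lay at 30.5% (29.4 to 31.6) of TFIIA and 53.0% (52.0 to 53.9) of TFIIB peaks, a difference of -22.4 percentage points (-23.9 to -21.0). H3K4me3 lay at 17.8% of TFIIA and 69.7% of TFIIB peaks (-51.9 points, -53.1 to -50.6). H3K4me1 lay at 15.8% of TFIIA and 57.7% of TFIIB peaks (-42.0 points, -43.2 to -40.7). FAIRE lay at 7.26% of TFIIA and 28.9% of TFIIB peaks (-21.7 points, -22.7 to -20.6). Taf1 ran the other way, at 24.4% of TFIIA and 6.25% of TFIIB peaks (18.2 points, 17.0 to 19.3).

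For scale, the H3K4me3, H3K4me1 and FAIRE peaks covered 0.871%, 2.63% and 0.0528% of the 2641 Mb reached by the peaks of all lists, and the TBP and Taf1 peaks 0.0851% and 0.0524%. None of these differences changed direction under the alternatives. The TBP difference was -35.9 points with the TFIIA, TFIIB and TBP lists each cut to the upper 50% by area. It was -37.4 points with these lists at equal length. Both settings shorten the TBP list as well. Its lower 50% by area held 61.6% of TBP peaks with TFIIA and no TFIIB, against 26.8% of those with TFIIB and no TFIIA. The part of the TBP cut in these differences was not tested. With the Taf1 list likewise cut to its upper 50%, the Taf1 difference was 29.9 points. It was smaller than the main value at equal list length (14.7 points) and with peaks up to 500 bp apart (15.1 points). The Taf1 list, from 1 replicate, itself lay mostly outside H3K4me3 chromatin, with 19.3% of its 13518 peaks over TBP and 8.57% over H3K4me3, and the part of this in the TFIIA result was not tested. TFIIH, the helicase and kinase complex that acts late in assembly, differed in the direction of Taf1 and lay at 30.4% of TFIIA and 11.3% of TFIIB peaks. TFIIF did so too, at 5.87% and 2.92%. TFIIE differed in the direction of TBP, at 31.4% of TFIIA and 41.7% of TFIIB peaks (-10.3 points, -11.75 to -8.85). Total Pol II lay at 30.7% of TFIIA and 56.1% of TFIIB peaks, and Ser5P, the form found near initiation, at 15.4% and 36.7%. ETS1 lay at 1.82% of TFIIA and 11.3% of TFIIB peaks.

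Shared peaks of both lists lay mainly in H3K4me3 chromatin, with TBP, Pol II and TFIIE. Among shared TFIIA peaks, 94.3% overlapped TBP, 89.6% H3K4me3, 94.96% total Pol II, 90.3% TFIIE, which brings in TFIIH, and 82.9% Ser5P. Among shared TFIIB peaks, which lie at the same sites by the rule of overlap, the same lists stood at 94.7%, 90.3%, 95.6%, 90.5% and 83.5%. FAIRE lay at 47.1% of shared TFIIA and 51.7% of shared TFIIB peaks. CBP, a histone acetyltransferase, was at 23.6% and 26.9% of them.

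Alone peaks of the factors were unlike each other. Alone TFIIA peaks overlapped TBP at 21.5%, H3K4me3 at 7.67%, H3K4me1 at 12.0%, FAIRE at 1.65% and Ser5P at 5.84%. Alone TFIIB peaks overlapped TBP at 49.6%, H3K4me3 at 68.0%, H3K4me1 at 58.0%, FAIRE at 27.1% and Ser5P at 33.0%. Neither H3K4 mark was found at 85.8% of alone TFIIA and 17.4% of alone TFIIB peaks. None of the 14 other lists was met by 45.8% of alone TFIIA peaks and by 12.4% of alone TFIIB peaks.

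**Figure D1:**
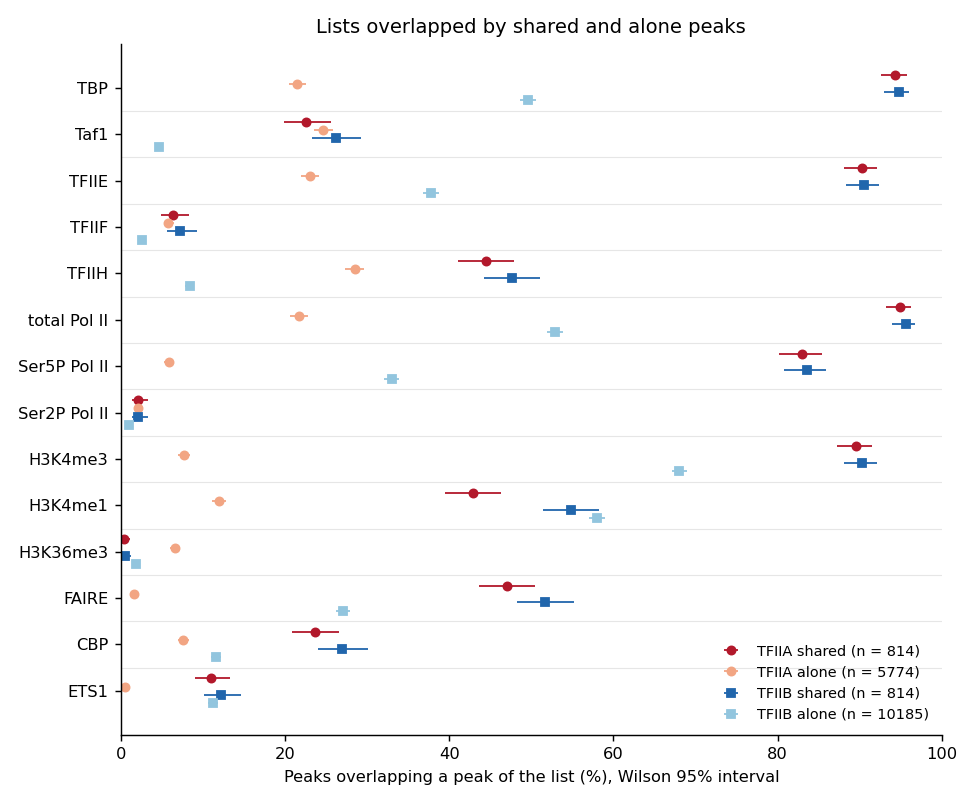
Share of peaks (x axis, percent) that overlap a peak of each of 14 lists, for shared and alone TFIIA peaks (circles) and shared and alone TFIIB peaks (squares); bars are Wilson 95% intervals. Shared peaks of both factors lie near 90% for H3K4me3, whereas alone TFIIA peaks are at 7.67% and alone TFIIB peaks at 68.0%.

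The step between shared and alone was larger in the TFIIA list for H3K4me3, TBP and FAIRE, though without replicates the steps of the lists were not tested against each other. For H3K4me3 it was 81.9 points (79.5 to 83.9) in TFIIA and 22.3 points (19.9 to 24.3) in TFIIB. For TBP it was 72.8 points (70.7 to 74.6) in TFIIA and 45.1 points (43.1 to 46.8) in TFIIB. For FAIRE it was 45.4 points in TFIIA and 24.6 points in TFIIB. Shared peaks of the lists are the same sites by the rule, so these steps differ mainly through the alone peaks. Of the alone TFIIB peaks 68.0% already overlapped H3K4me3, which left little room for a step. The TFIIB step for H3K4me3 was 11.1 points in the upper 50% by area and 13.1 points with equal lists.

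Taf1 did not follow this order, and H3K4me1 did so with a TFIIB step that was within counting error. Taf1 lay at 22.6% of shared and 24.7% of alone TFIIA peaks, and this difference of -2.06 points (-5.02 to 1.13) lay within counting error. It took either sign among the alternatives, with 5.63 points for peaks up to 500 bp apart, 1.04 points for windows of 200 bp and -15.5 points in the upper 50% by area. In TFIIB, Taf1 lay at 26.2% of shared and 4.65% of alone peaks (21.5 points, 18.6 to 24.7). H3K4me1 lay at 42.9% of shared and 12.0% of alone TFIIA peaks (30.9 points, 27.5 to 34.4), and the difference was 76.7 points with peaks up to 500 bp apart and 17.9 points when at least 50% of the shorter peak had to be in common. In TFIIB it lay at 54.8% of shared and 58.0% of alone peaks (-3.19 points, -6.75 to 0.336). That difference was 9.66 points with peaks up to 500 bp apart and -22.4 points under the stricter overlap.

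Alone TFIIA peaks were not all bare: those on TBP often overlapped peaks of other general factors. Whether the factors were bound together there, or the separate libraries had signal in common for another reason, was not tested. Alone TFIIA peaks with a TBP peak numbered 1242, and 64.2% (61.5 to 66.8) of them overlapped Taf1, against 13.8% of those without TBP. They also overlapped TFIIH at 72.6%, TFIIE at 67.1% and total Pol II at 68.7%. Beside the TBP that chose them, at least 2 of the lists Taf1, TFIIE, TFIIF and TFIIH were met by 73.0% of these peaks. TFIIF, which escorts Pol II to the promoter, was at 19.3%. Yet 80.1% of them lay outside both H3K4 marks, 20.3% had Ser5P and 4.43% had FAIRE. The TFIIA peaks shared with TFIIB and holding TBP, 768 in all, had Taf1 at 23.3%, TFIIH at 46.0%, TFIIF at 6.38%, Ser5P at 85.7% and FAIRE at 48.3%, and 5.99% of them lay outside both marks.

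Most alone TFIIA peaks with TBP, 995 of 1242, had neither H3K4 mark. Of these 995, 80.1% met at least 2 of the lists Taf1, TFIIE, TFIIF and TFIIH, 79.4% TFIIH, 71.5% Taf1, 68.0% total Pol II and 24.8% CBP, against 15.2% with Ser5P and 0.905% with FAIRE. The corresponding class of alone TFIIB peaks with TBP and neither mark was 1.42% of the TFIIB list, and 11.5% of its peaks met at least 2 of those lists, 8.97% Taf1 and 41.0% FAIRE. In TFIIB most TBP-bearing peaks were in H3K4me3 chromatin, since 88.0% of the 5053 alone TFIIB peaks with TBP were H3K4me3-marked, and 3.09% had neither mark.

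TFIIA peaks without TFIIB and without TBP were the largest TFIIA class, with 4532 members (68.8% of the list). None of the 14 other lists was met by 58.3% of them. The matching TFIIB class had 5132 members (46.7% of the list), and 24.6% met none of the 14 other lists. Both classes were mostly of low area. By decile of area within the list (decile 1 is the highest), 61.3% of that TFIIA class lay in deciles 6 to 10. Decile 1 held 3.18% of it. That TFIIB class had 73.8% in deciles 6 to 10 and 0.409% in decile 1. Their median widths were 90 bp and 70 bp, against 110 bp over each whole list. The part of area and width in the missing overlaps was not tested. H3K4me3 lay at 6.02% of that TFIIA class and at 48.3% of that TFIIB class. Peaks shared by TFIIA and TFIIB but without TBP were few, 46 in the TFIIA list and 43 in the TFIIB list, and 82.6% and 76.7% of them were H3K4me3-marked.

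Area separated the lists further. In TFIIB, peaks of high area lay in H3K4me3 chromatin. H3K4me3 lay at 94.2% of the TFIIB peaks in decile 1, the tenth of highest area, and at 52.3% in decile 10. TBP lay at 98.1% of decile 1 and 24.5% of decile 10, and FAIRE at 59.4% and 13.1%. TFIIA lay at 35.2% of TFIIB peaks in decile 1, at 13.3% in decile 2 and at 1.45% in decile 10. Peaks with neither H3K4 mark made up 3.18% of decile 1 and 29.3% of decile 10. Area went with width in both lists. The median width fell from 280 bp in decile 1 to 30 bp in decile 10 in TFIIB, and from 180 to 30 bp in TFIIA. A wide peak meets another list more readily, and area and width were not separated in these deciles.

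In TFIIA, high area went with other general factors more than with H3K4me3. TBP lay at 78.0% of TFIIA peaks in decile 1 and 10.2% in decile 10, Taf1 at 59.7% and 5.62%, and TFIIH at 79.9% and 6.68%. H3K4me3 lay at 31.9% in decile 1 and between 12.6% and 19.3% in the other 9 deciles. Peaks with neither mark made up 62.2% of decile 1 and between 72.7% and 81.3% of the others. TFIIB was at 29.6% of decile 1, 8.65% of decile 4 and 7.59% of decile 10.

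**Figure D2:**
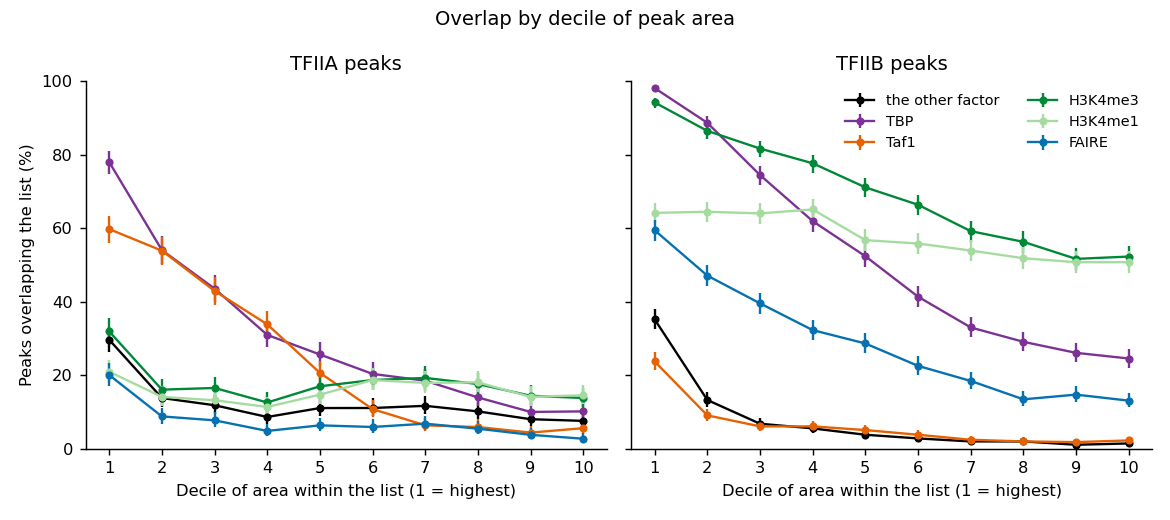
Share of TFIIA peaks (left) and TFIIB peaks (right) that overlap the other factor, TBP, Taf1, H3K4me3, H3K4me1 and FAIRE, by decile of peak area within the list (decile 1 is the highest); bars are Wilson 95% intervals. Taf1 reaches 59.7% of TFIIA decile 1 and 23.7% of TFIIB decile 1, whereas H3K4me3 reaches 31.9% and 94.2%.

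TFIIA decile 1 held an H3K4me3-marked set and a larger set with neither H3K4 mark. The 210 H3K4me3-marked peaks of decile 1 had TFIIB at 86.7%, TBP at 98.1%, Ser5P at 91.9%, FAIRE at 56.2%, TFIIH at 74.8% and Taf1 at 43.8%. The 409 unmarked peaks of decile 1 had TFIIB at 2.69%, TBP at 68.0%, Ser5P at 18.3%, FAIRE at 2.44%, TFIIH at 82.9% and Taf1 at 68.2%. Total Pol II was at 97.6% of the marked set and 71.1% of the unmarked set. In TFIIB, decile 1 had 1035 H3K4me3-marked peaks and 35 unmarked ones, with TFIIA at 35.4% and 31.4%.

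Shared peaks were concentrated at high TFIIB area. Decile 1 held 387 of the 814 shared TFIIB peaks (47.5%), while 195 of the 814 shared TFIIA peaks (24.0%) were in TFIIA decile 1. The lower 5 deciles held 320 shared TFIIA peaks (39.3%) and 103 shared TFIIB peaks (12.7%). Over the 733 one-to-one pairs, the areas of the TFIIA and TFIIB peaks were related with a Spearman rho of 0.45, given as a description across sites that share their libraries and local chromatin. Of the pairs with TFIIA in decile 1, 79.0% had TFIIB in decile 1 as well, and of the pairs with TFIIB in decile 1, 40.9% had TFIIA there.

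Over whole lists the widths were alike, both at a median of 110 bp with 60 and 160 bp as quartiles. Shared TFIIA peaks had a median of 130 bp (quartiles 80 and 180) and shared TFIIB peaks one of 220 bp (150 and 290). Alone TFIIA peaks had a median of 110 bp and alone TFIIB peaks one of 100 bp. Of the TFIIA peaks, 180 were 200 bp or wider, and 148 of these were shared, whereas 1813 TFIIB peaks were that wide and 478 were shared. In the one-to-one pairs the TFIIB peak was the wider one in 582 (79.4%), and 56.5% of the TFIIA peaks lay wholly inside their TFIIB partner.

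TFIIA peaks of 200 bp or wider lay mostly in H3K4me3 chromatin, although only 149 of the 1172 H3K4me3-marked TFIIA peaks were that wide. Of the 1994 TFIIA peaks of 150 to 190 bp, 14.0% overlapped H3K4me3, 10.7% TFIIB, 52.1% TBP and 51.8% Taf1. Of the 140 TFIIA peaks of 200 to 290 bp, 80.7% overlapped H3K4me3, 80.0% TFIIB, 93.6% TBP and 38.6% Taf1. TFIIB changed more evenly over the same step: 82.8% of the 1778 peaks of 150 to 190 bp and 90.3% of the 1315 peaks of 200 to 290 bp overlapped H3K4me3. The range of 150 to 190 bp held 30.8% of the alone TFIIA peaks and 26.3% of the shared ones. It held 72.6% of the 995 unmarked alone TFIIA peaks with TBP and 16.2% of all TFIIB peaks. The TFIIA track name records an elongation of 171, with no unit, as do those of TFIIF and TFIIH, whose median widths were 130 and 150 bp. That of TFIIE records 176, and the TFIIE median width was 160 bp. None is recorded for TFIIB, TBP or Taf1, and the part of the elongation in these widths was not tested.

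**Figure D3:**
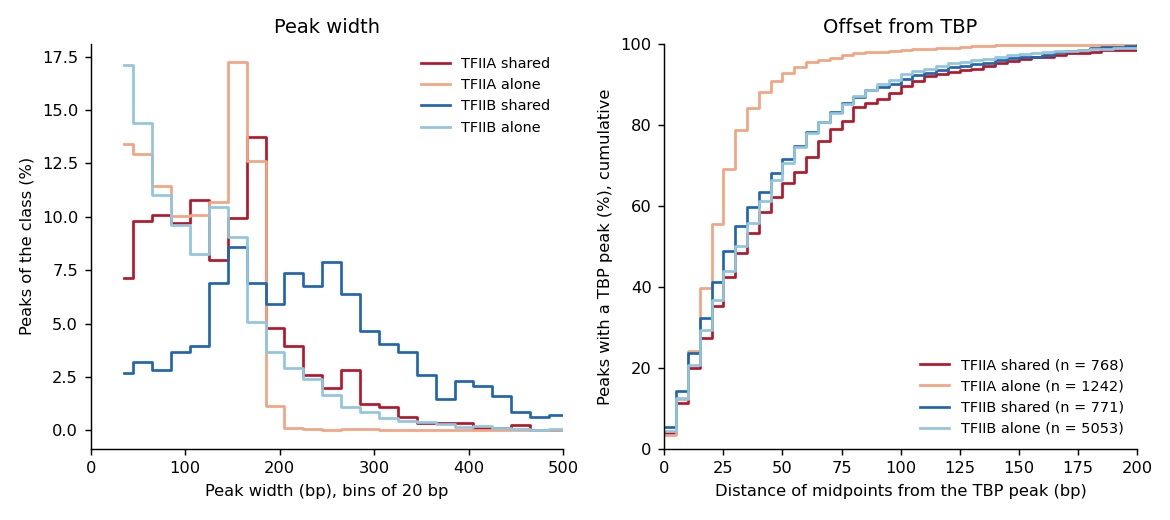
Left, distribution of peak width (bp, bins of 20 bp, percent of each class); right, cumulative percent of peaks by distance of their midpoint from that of the overlapping TBP peak (bp). The range of 150 to 190 bp holds 30.8% of alone and 26.3% of shared TFIIA peaks. Shared TFIIB peaks are the widest class, with a median of 220 bp. Among peaks with TBP, the 1242 alone TFIIA peaks lie closest to it, with 55.5% within 20 bp. Their TBP peaks have a median width of 110 bp, against 280 bp at shared TFIIA peaks.

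Where a TBP peak was overlapped, both factors lay close to its midpoint. The median distance between midpoints was 25 bp for the 2010 TFIIA peaks with TBP (quartiles 15 and 40) and 30 bp for the 5824 TFIIB peaks with TBP (quartiles 15 and 60). That difference of 5 bp is below the 10 bp bins on which peak ends fall. Within 50 bp lay 82.5% of these TFIIA and 70.8% of these TFIIB peaks. Among shared and alone peaks of both factors, alone TFIIA peaks were closest, with a median of 20 bp and 55.5% (52.7 to 58.2) within 20 bp, against 35 bp and 35.2% (31.9 to 38.6) for shared TFIIA peaks. Shared and alone TFIIB peaks both had a median of 30 bp, with 41.1% and 36.7% within 20 bp.

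Widths limit these distances, because narrow peaks that overlap must have close midpoints. The TBP peaks had a median width of 280 bp at shared TFIIA peaks and 110 bp at alone TFIIA peaks. At TBP peaks of 200 bp or wider, the median distance was 35 bp for 611 shared and 55 bp for 63 alone TFIIA peaks. At TBP peaks under 200 bp it was 25 bp for 157 shared and 20 bp for 1179 alone TFIIA peaks. In H3K4me3 chromatin at TBP peaks of 200 bp or wider, TFIIA and TFIIB had the same median distance of 40 bp (614 and 2541 peaks). Thus 1179 of the 1242 alone TFIIA peaks with TBP were on TBP peaks under 200 bp, against 157 of the 768 shared ones.

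At 676 one-to-one pairs the TFIIA and TFIIB peaks had the same nearest TBP peak. The median distance from TBP was 30 bp for TFIIA and 25 bp for TFIIB, and TFIIA and TFIIB were 30 bp apart. TFIIA was nearer to TBP in 282 pairs, TFIIB in 351, and 43 were ties. All 3 midpoints lay within 30 bp of each other at 192 sites (28.4%). In 500 pairs both factors were at least 10 bp from the TBP midpoint, and in 352 of them (70.4%, 66.3 to 74.2) they were on the same side of it. The peaks of a pair overlap each other by selection, which favours the same side. This share is therefore a description and was not tested. The lists carry no strand of transcription, so upstream and downstream were not told apart.

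Seen from TBP, most sites had neither partner. Of 15651 TBP peaks, 764 (4.88%, 4.56 to 5.23) overlapped both factors, 1220 (7.80%) TFIIA without TFIIB, 4809 (30.7%) TFIIB without TFIIA and 8858 (56.6%) neither. The 10376 H3K4me3-marked TBP peaks had both at 6.82%, TFIIA without TFIIB at 1.46% and TFIIB without TFIIA at 40.9%. The 3850 TBP peaks with neither H3K4 mark had both at 0.675%, TFIIA without TFIIB at 25.9% and TFIIB without TFIIA at 3.22%. The 1425 TBP peaks with H3K4me1 and no H3K4me3 lay between, at 2.11%, 5.12% and 30.7%.

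TBP peaks with Taf1 held TFIIA more often than those without it in either chromatin, and held TFIIB more often in H3K4me3 chromatin as well. The TBP peaks with and without Taf1 were not matched for area or width, and the part of these in the contrast was not tested. Among H3K4me3-marked TBP peaks, TFIIA lay at 35.1% (31.6 to 38.7) of the 696 with Taf1 and 6.35% (5.88 to 6.86) of the 9680 without it, and TFIIB at 74.9% (71.5 to 77.9) with Taf1 and 45.8% (44.8 to 46.8) without it. Both factors together were at 29.6% with Taf1 and 5.19% without it. Among TBP peaks with neither mark, TFIIA lay at 41.0% (38.7 to 43.3) of the 1775 with Taf1 and 14.2% (12.8 to 15.8) of the 2075 without it, and TFIIB at 1.35% (0.910 to 2.00) with Taf1 and 6.07% (5.12 to 7.18) without it.

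TBP area set the classes apart. TBP peaks with both factors were the widest, at a median of 280 bp, and 61.4% of them were in TBP decile 1. Those with TFIIB without TFIIA had a median of 170 bp, and 15.8% were in decile 1. Those with TFIIA without TFIIB had a median of 110 bp, and 2.21% were in decile 1 and 61.6% in the lower 5 deciles. In TBP decile 1 both factors were found at 30.0% of peaks and TFIIB without TFIIA at 48.7%, while TFIIA without TFIIB was at 1.73% there and at 14.4% in decile 6.

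**Figure D4:**
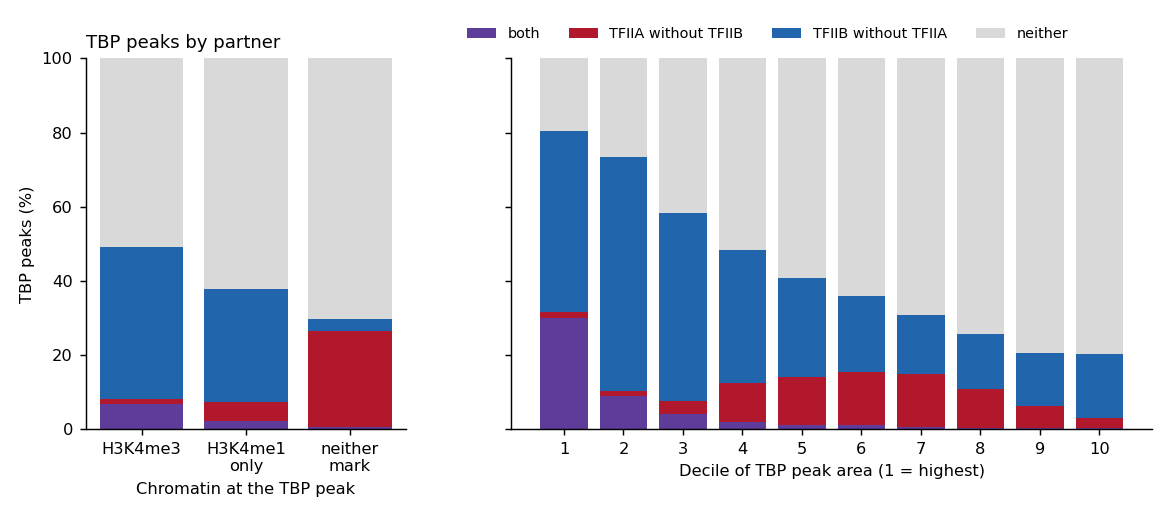
TBP peaks (y axis, percent) that overlap both factors, TFIIA without TFIIB, TFIIB without TFIIA, or neither, by chromatin at the TBP peak (left) and by decile of TBP area (right, decile 1 is the highest). TFIIA without TFIIB makes up 25.9% of TBP peaks outside both H3K4 marks and 1.46% of H3K4me3-marked ones.

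The strongest peaks show these classes at single sites. The first alone peak ranked 14 by area in TFIIA and 54 in TFIIB, and all peaks above it in each list were shared. The TFIIA peak of highest area lay on chromosome 13 at 23854151 to 23854500 (350 bp), over the TBP peak ranked 265 by area at 23854151 to 23854490 and the TFIIB peak ranked 80 at 23854161 to 23854430. A second TFIIB peak, at 23854461 to 23854550, also touched it. The next TFIIA peaks were at 17787051 to 17787340 on chromosome 13, 136752771 to 136753190 on chromosome 6, 139794971 to 139795310 on chromosome 1 and 87240031 to 87240550 on chromosome 11. All 5 overlapped TBP, H3K4me3, total Pol II, Ser5P and TFIIE, 4 overlapped TFIIH, 3 Taf1 and 3 FAIRE.

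The TFIIB peak of highest area lay on chromosome 4 at 131825921 to 131826470 (550 bp). It held the TFIIA peak ranked 9 at 131825971 to 131826300 and overlapped the TBP peak ranked 26, with the TFIIA midpoint 100 bp and the TFIIB midpoint 40 bp to the same side of TBP. The others were at 55797431 to 55797970 on chromosome 12, 115939241 to 115939650 on chromosome 5, 82979821 to 82980230 on chromosome 15 and 87235961 to 87236500 on chromosome 11. Their TFIIA partners ranked 10, 13, 405 and 7. All 5 had TBP, total Pol II, Ser5P, TFIIE and TFIIH, none had Taf1, and the site on chromosome 15 was the one without H3K4me3.

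Some of these strong sites were neighbours. On chromosome 11, the TFIIB peak at 87235961 to 87236500 and the one at 87239901 to 87240590 were 3.40 kb apart, and the second of these held the TFIIA peak ranked 5. On chromosome 1, the TFIIA peak ranked 4 lay 1.92 kb from the widest alone TFIIB peak, at 139797231 to 139797880 (650 bp). On chromosome 13, the TFIIA peak of highest area lay 15.4 kb from the alone TFIIB peak of highest area, at 23838291 to 23838760, which sat on a TBP peak of 460 bp.

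Among the TBP peaks with both factors, those of highest area ranked 14, 16, 19, 20 and 22 in the TBP list. They were on chromosome 13 at 21845631 to 21846060 and 23775741 to 23776160, on chromosome 3 at 96073251 to 96073790, on chromosome 10 at 128063441 to 128063920 and on chromosome 19 at 5802531 to 5802860. All 5 had H3K4me3, Ser5P, TFIIE and TFIIH, and 3 had Taf1. At the first, the TFIIA peak was 80 bp wide and ranked 4530, while the TFIIB peak was 420 bp wide and ranked 14. At the last, all 3 peaks ranked 20 to 25 in their lists and their midpoints were within 10 bp of that of TBP.

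**Figure D5:**
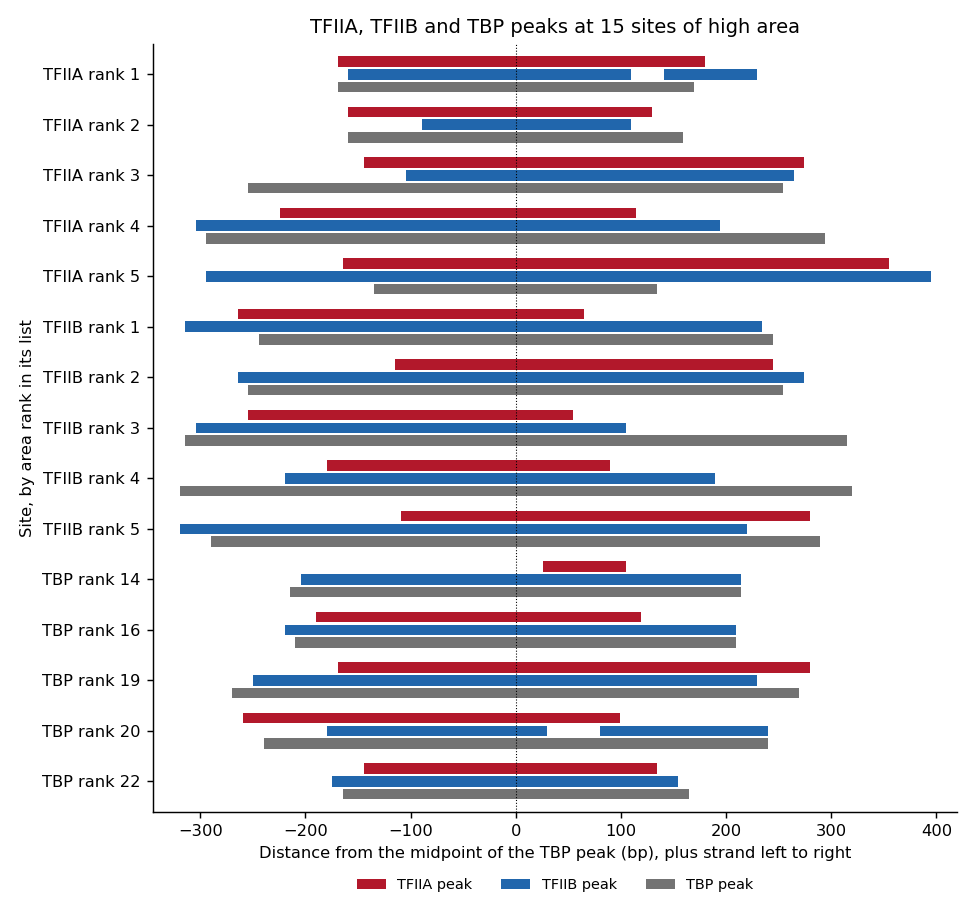
Extent of the TFIIA (red), TFIIB (blue) and TBP (grey) peaks at 15 sites, as distance in bp from the midpoint of the TBP peak on the plus strand; rows are the 5 shared TFIIA peaks, the 5 shared TFIIB peaks and the 5 TBP peaks with both factors that have the highest area. The TFIIB peak reaches 690 bp at the site of TFIIA rank 5, and TFIIA is 80 bp wide at the site of TBP rank 14.

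Alone peaks of high area split by factor. The 5 alone TFIIB peaks of highest area ranked 54 to 62, measured 300 to 470 bp, and all had TBP, total Pol II, Ser5P and TFIIE peaks, 4 had H3K4me3 and none had Taf1. The 5 alone TFIIA peaks of highest area ranked 14 to 44. TBP was present at 3 of their sites, at 93425071 to 93425270 on chromosome 15, 71396831 to 71397020 on chromosome 4 and 95630361 to 95630550 on chromosome 3, each 190 or 200 bp wide and with TBP ranks of 4146, 6370 and 6254. The sites on chromosomes 4 and 3 had Taf1, TFIIE, TFIIH and total Pol II and neither H3K4 mark.

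The other alone TFIIA peaks of high area were also the widest. One, of 460 bp, lay on chromosome 17 from 4626211 to 4626670, and another, of 380 bp, on chromosome 6 from 125826821 to 125827200. The next in width, of 300 bp, lay on chromosome 11 from 25000031 to 25000330. All 3 overlapped H3K4me1, Ser5P and Ser2P, none overlapped H3K4me3, total Pol II or TFIIE, and 1 had a TBP peak. The widest alone TFIIB peaks, 610 to 650 bp, all had TBP, H3K4me3, Ser5P and CBP, and none had Ser2P.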

How the data were processed

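The assays were ChIP-seq and FAIRE-seq on mouse double-positive thymocytes, deposited as 1 peak list per target. Per the file names, 13 lists came from merged replicates and 3 (TFIIB, Taf1 and CBP) from 1 replicate. Each list gives the start, end and area of a peak, and the area is the authors' signal value, in an unstated unit. The build was mm9, per the submitters' processing notes. Aligner, peak caller, thresholds and read numbers were not given in the sources used here, so depth was unknown. The 4 samples without a list were the input and rabbit Ig control libraries and the total and poly(A) RNA-seq. They were not analysed here, so no peak was checked here against a control library.

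Peaks were compared as 1-based closed intervals, with 1 bp in common as overlap, in Python 3.11.15 (pandas 2.3.3, numpy 2.4.6, scipy 1.17.1; figures by matplotlib 3.10.9). Deciles of area were formed within a list. Midpoint offsets used the overlapping TBP peak of nearest midpoint. Shares have Wilson and differences Newcombe 95% intervals, for counting error only. The overlap and interval code was tested on simulated data. Named regions are the 5 peaks of highest area and the 3 widest peaks of each shared or alone class, and the 5 TBP peaks of highest area with both factors. No gene, sequence or motif was assigned, because a genome of mm9 was not used here. The members, lists and classes were chosen with earlier results of these data known. The alternatives were overlap of 50% of the shorter peak, a gap of up to 500 bp, the upper 50% by area, equal list length, autosomes alone, and windows of 200 bp around midpoints. The cuts by area and length and the windows were applied to the TFIIA, TFIIB, TBP, Taf1 and FAIRE lists. The H3K4me3 and H3K4me1 lists were left whole in these settings.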

Additional observations from a re-analysis of the deposited data

Results flagged for a closer look

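For Taf1 and H3K4me1, the difference between shared and alone peaks had a different sign in the TFIIA and TFIIB lists, but in each case 1 of the values lay within counting error and took either sign among the alternatives, so opposite directions were not shown. The Taf1 difference, shared minus alone, was -2.06 percentage points in TFIIA, with an interval that includes 0, and 21.5 points in TFIIB. For H3K4me1 it was 30.9 points in TFIIA and -3.19 points in TFIIB, the TFIIB interval again including 0. Among the alternatives, the TFIIB value for H3K4me1 was above 0 only with peaks up to 500 bp apart (9.66 points). The TFIIA value for Taf1 was above 0 in that setting (5.63 points) and with windows of 200 bp (1.04 points). With 1 list per factor, whether the factors differ in these steps was not tested.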

How the results depend on the processing

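On autosomes alone, all 18 values (2 shared shares, 15 differences of shares and the TBP offset) stayed within their counting error. Of the 108 values over 6 settings, 45 did so, 63 moved and none of the values whose interval excludes 0 changed sign. The TFIIA step for Taf1 and the TFIIB step for H3K4me1, whose intervals include 0, took either sign. All differences are in percentage points.

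With 50% of the shorter peak in common, the shared shares were 11.5% (TFIIA) and 6.74% (TFIIB). TFIIA minus TFIIB was -20.2 for TBP, -49.4 for H3K4me3, -34.5 for H3K4me1 and -19.4 for FAIRE. Shared minus alone in TFIIA was -5.55 for Taf1, 76.0 for H3K4me3, 17.9 for H3K4me1 and 40.0 for FAIRE. In TFIIB it was 48.7 for TBP and -22.4 for H3K4me1.

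With peaks up to 500 bp apart, the shared shares were 15.3% and 12.0%. TFIIA minus TFIIB was -31.6 for TBP, 15.1 for Taf1, -54.5 for H3K4me3, -55.7 for H3K4me1 and -29.4 for FAIRE. Shared minus alone in TFIIA was 5.63 for Taf1, 86.7 for H3K4me3, 76.7 for H3K4me1 and 56.0 for FAIRE. In TFIIB it was 34.6 for TBP, 25.0 for Taf1 and 9.66 for H3K4me1. The median offset from TBP, TFIIA minus TFIIB, was -15 bp, against -5 bp with overlap.

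In the upper 50% by area of each list except the H3K4 lists, the shared shares were 13.9% and 8.58%. TFIIA minus TFIIB was -35.9 for TBP, 29.9 for Taf1, -63.4 for H3K4me3 and -48.0 for H3K4me1. Shared minus alone in TFIIA was 81.5 for TBP, -15.5 for Taf1 and 85.2 for H3K4me3. In TFIIB it was 37.3 for TBP, 11.1 for H3K4me3, -11.3 for H3K4me1 and 18.0 for FAIRE.

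With the TFIIB, TBP, Taf1 and FAIRE lists cut to the 6588 peaks of TFIIA, and the H3K4 lists whole, the shared shares were 11.4% and 11.2%. TFIIA minus TFIIB was -37.4 for TBP, 14.7 for Taf1, -61.8 for H3K4me3, -45.9 for H3K4me1 and -23.3 for FAIRE. Shared minus alone in TFIIA was 84.6 for TBP and 40.9 for FAIRE. In TFIIB it was 14.6 for Taf1, 13.1 for H3K4me3 and 18.7 for FAIRE. The offset difference was 0 bp.

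With windows of 200 bp around midpoints, the shared shares were 13.5% and 8.53%. TFIIA minus TFIIB was -25.7 for TBP, -44.2 for H3K4me1 and -24.6 for FAIRE. Shared minus alone in TFIIA was 84.7 for H3K4me3, 37.6 for H3K4me1 and 49.5 for FAIRE. In TFIIB it was 38.8 for TBP and -10.1 for H3K4me1. Causes of these shifts were not tested beyond the construction of each setting.

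No paired analysis was possible because each target has 1 list. No replicate was left out for the same reason. The depth of the merged and single-replicate lists is unknown, and so is the smallest peak each list can hold.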

Other observations

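Some sites shared by TFIIA and TFIIB lay in H3K4me1 chromatin with no H3K4me3, the state seen over enhancers, and there were 36 such peaks in the TFIIA list and 37 in the TFIIB list. TBP was at 86.1% (71.3 to 93.9) of these TFIIA and 89.2% (75.3 to 95.7) of these TFIIB peaks. CBP was at 52.8% (37.0 to 68.0) and 43.2% (28.7 to 59.1) of them, and FAIRE at 47.2% and 51.4%. In the same chromatin, CBP was at 7.89% of the 380 alone TFIIA peaks and 18.2% of the 1482 alone TFIIB peaks. ETS1 was at 22.2% (11.7 to 38.1) of the shared TFIIA peaks and 13.5% (5.91 to 28.0) of the shared TFIIB peaks, against 4.21% of the alone TFIIA peaks and 16.5% of those alone TFIIB peaks. FAIRE was at 2.63% of those alone TFIIA and 26.6% of those alone TFIIB peaks.

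H3K36me3, which lies along transcribed gene bodies, was at 3 of the 814 shared TFIIA peaks (0.369%) and 380 of the 5774 alone ones (6.58%). In TFIIB it was at 0.491% of shared and 1.80% of alone peaks. Within alone TFIIA peaks H3K36me3 was at 3.30% of those with TBP and 7.48% of those without it, whereas Ser2P was at 7.57% of those with TBP and 0.552% of those without it. H3K36me3 peaks covered 3.95% of the span of the lists.

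Over the 20 chromosomes with at least 50 TFIIA peaks, the shared part ranged from 7.87% to 20.3% of TFIIA peaks (median 11.9%) and from 5.50% to 11.3% of TFIIB peaks (median 6.70%).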
